A study of Rattus norvegicus with 10 samples.

Results

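A set of 7 genes of the vessel wall was followed through the gastric mucosa of Sprague Dawley rats given a non-steroidal anti-inflammatory drug (NSAID), out of 32623 features counted in each library. The genes were taken by Ensembl identifier and chromosome: Icam1 (ENSRNOG00000020679, chromosome 8), Vcam1 (ENSRNOG00000014333, chromosome 2), Selp (ENSRNOG00000002794) and Sele (ENSRNOG00000002723, both chromosome 13), Edn1 (ENSRNOG00000014361, chromosome 17), Nos3 (ENSRNOG00000009348, chromosome 4) and Thbs1 (ENSRNOG00000045829, chromosome 3). Of these, 7 of 7 passed the filter on low counts, Sele and Selp only through groups in which they were high. There were 10 libraries in 5 groups of 2. Control rats carry no treatment label. Each NSAID was given by mouth and mucosa was taken 4 h later. The indomethacin dose was 48 mg/kg, that of diclofenac 75 mg/kg, and rats on aspirin received 400 mg/kg. In the last group honokiol, a lignan of magnolia bark, was injected into the peritoneum at 40 mg/kg 30 min ahead of indomethacin at 48 mg/kg. The time label of that group reads 0.5 h and was taken as the lead of honokiol, since the protocol describes sampling at 4 h. No library of vehicle or of honokiol alone was analysed here. The labels give neither the age of the rats nor whether replicate libraries stem from different rats, so p-values measure the spread between libraries. In control and indomethacin the replicates differed in counts on the Y chromosome, 3582 against 1 and 4438 against 2. Those replicates were thus not 1 sample sequenced again, while in the other groups the spread may be technical.

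Endothelial cells line the vessels that run through the gastric mucosa. When activated by cytokines they place selectins on their surface, which slow passing leucocytes, and then immunoglobulin-like adhesion molecules, which bind leucocyte integrins and hold the cells in place. The same cells set vessel tone through endothelin, a constrictor peptide, and nitric oxide, a dilator, and thrombospondin 1 is a matrix glycoprotein of platelets and injured tissue that restrains vessel growth. NSAIDs block the synthesis of prostaglandins, which sustain mucosal blood flow, and adhesion of neutrophils to mucosal vessels is a known early feature of NSAID gastropathy. The labels name epithelial cells as the cell type, while most of these 7 genes are known from endothelium. The label could not be checked against defining markers, because the deposited identifiers could not be paired with gene symbols beyond the 7.

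Library totals ran from 23892226 to 44977459 counts, of which the 7 genes took 1821 to 43567. The correlation between replicates over genes lay between r = 0.963 and r = 0.976, and no pair was a copy of the same library, with a chi-square of at least 37.8 per degree of freedom. Libraries differed in reads on the Y chromosome within and between groups, so rats of both sexes may be mixed, which was not tested. Control replicate 1, indomethacin replicate 1 and both libraries with honokiol had 2733 to 4438 counts on 7 Y features, and the other 6 libraries, all aspirin and diclofenac libraries among them, had at most 47. The deposited tables of aspirin and diclofenac ended in 2 empty lines each and the others in 1, and whether these groups were also prepared apart cannot be told apart from the drug. Positions are as deposited, on a build the sources used here do not name, and counts are over exons. None of the 7 genes shared exon bases with another feature except Nos3, whose neighbour on the opposite strand (chromosome 4, 7314369 to 7321029) held at most 1 count in any library.

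Promoter windows of 300 bases, 250 before and 50 from a start site, were read from RefSeq on build GRCr8 for 6 of the 7 genes. Those of Icam1, Vcam1 and Thbs1 are shown because Icam1 and Thbs1 passed the test with every NSAID, while Vcam1, like Icam1 an endothelial ligand of leucocyte integrins, passed with none. Capitals mark matches to GGNNNTTCC on either strand, a pattern of the kind bound by NF-kB, the factor through which cytokines are known to induce adhesion molecules. The windows lie at chr8:27829595-27829894 on the plus strand (Icam1), chr2:206742734-206743033 on the minus strand (Vcam1) and chr3:125510000-125510299 on the plus strand (Thbs1), and each is written 5′ to 3′ along its gene.

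Icam1: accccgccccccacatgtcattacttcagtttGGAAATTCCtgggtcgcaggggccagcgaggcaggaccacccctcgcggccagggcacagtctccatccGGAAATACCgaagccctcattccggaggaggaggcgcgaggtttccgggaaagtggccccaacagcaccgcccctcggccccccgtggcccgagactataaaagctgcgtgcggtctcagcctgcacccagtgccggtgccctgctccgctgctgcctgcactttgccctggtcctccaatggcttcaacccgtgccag

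Vcam1: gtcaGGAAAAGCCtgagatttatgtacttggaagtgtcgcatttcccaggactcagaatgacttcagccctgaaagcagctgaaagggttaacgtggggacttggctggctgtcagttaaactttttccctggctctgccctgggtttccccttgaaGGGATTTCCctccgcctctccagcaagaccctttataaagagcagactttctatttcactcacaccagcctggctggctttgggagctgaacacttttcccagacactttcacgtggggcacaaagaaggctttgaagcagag

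Thbs1: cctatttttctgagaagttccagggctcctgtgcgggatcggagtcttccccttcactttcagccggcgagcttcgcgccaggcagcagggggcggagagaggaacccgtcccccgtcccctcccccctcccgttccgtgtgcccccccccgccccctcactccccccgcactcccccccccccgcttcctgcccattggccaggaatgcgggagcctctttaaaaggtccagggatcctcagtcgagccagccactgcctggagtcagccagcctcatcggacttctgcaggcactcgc

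The Icam1 window held 2 such matches, with first bases at -218 and -149 from the start site, and the one at -218 matched on both strands. Vcam1 also held 2, at -246 and -93. The windows of Thbs1, Sele, Edn1 and Nos3 held 0. The last 50 bases of the Sele window open with the letters ATG, so its start site may be a start codon. The Sele promoter may then lie outside the window, and its 0 matches say nothing of it. The pattern occurs in 18.3% of all 33469 windows of this length. A TATA box, TATAAA, was found at -53 in Icam1 and at -110 in Edn1, and on both strands in Vcam1 in overlapping matches at -62 and -60 (14.2% of all windows). The core of the hypoxia element, ACGTG, was found in Edn1 at -201 and in Vcam1 at -159 and, as overlapping matches on opposite strands, at 18 and 19 (19.3% of all windows). The AP-1 motif TGANTCA was found in none of the 6 (7.33% of all windows). Distances count from the RefSeq start, which was not checked in these data and may differ from the start used in mucosa. A match is a description of letters, and no binding was measured.

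**Figure D1:**
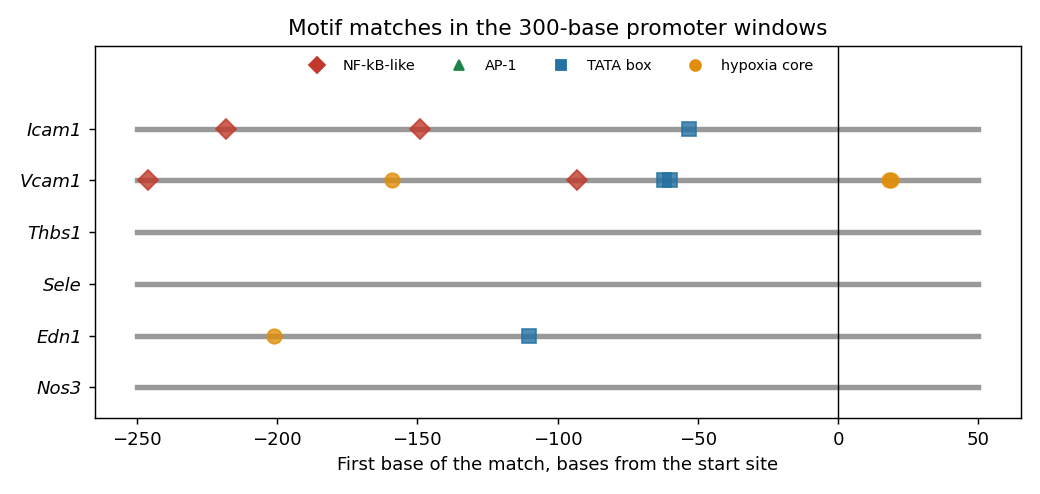
Motif matches in the promoter windows of 6 genes, with the distance of the first base from the start site in bases on the horizontal axis and 1 line per gene. Matches to the NF-kB-like pattern (red diamonds) lie in Icam1 at -218 and -149 and in Vcam1 at -246 and -93. The lines of Thbs1, Sele and Nos3 carry no symbol, and the Sele window may not hold its promoter.

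Against control, the adhesion molecule Icam1, Nos3 and Thbs1 rose with diclofenac and with aspirin, and Icam1 and Thbs1 rose with indomethacin. Vcam1 and Edn1 passed the test with no drug. Sele and Selp, with 0 to 3 counts in control, were tested only because they were high with the drugs, so they had to differ and are left out of the counts and medians here. Of the 5 genes with at least 10 counts in each control, 2 were called higher with indomethacin, where 0.752% of all tested genes were called higher, 3 with diclofenac (4.76% of all genes) and 3 with aspirin (9.5%). A call is an edgeR adjusted p under 0.05 over 16346 genes. With each drug 0 of the 5 were called lower. Of all genes, 0.0245% were called lower with indomethacin, 3.11% with diclofenac and 8.26% with aspirin. Their median log2 fold change was 1.64 with indomethacin, 2.15 with diclofenac and 2.33 with aspirin, which is the value of Nos3 in each case, beside -0.02, -0.01 and -0.0011 over all genes. Both drug libraries lay above both controls for 4 of these 5 genes with indomethacin (20.1% of all genes), 3 with diclofenac (27%) and 4 with aspirin (30.4%). These comparisons share the control libraries. In bulk mucosa, more cells of a type and more RNA per cell cannot be told apart.

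**Figure D2:**
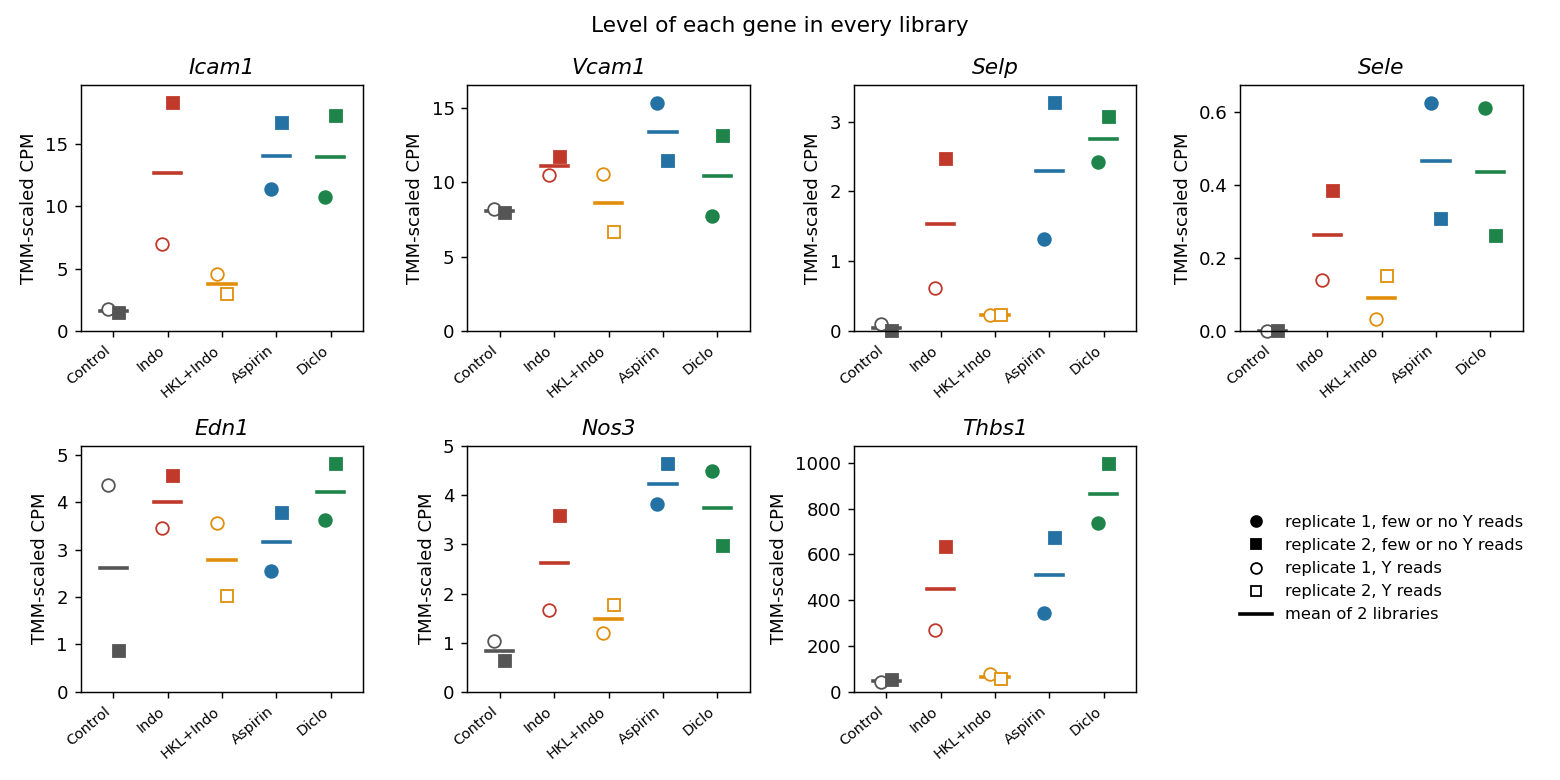
TMM-scaled CPM (vertical axes from 0, 1 scale per gene) of the 7 genes in the 10 libraries, with 1 point per library, a line at the mean of 2 and open symbols for libraries with Y reads. Thbs1 lay between 43.3 and 75.6 in the controls and the honokiol libraries and at 270 or above in the 6 libraries of the NSAIDs alone, while the 2 controls of Edn1 spanned nearly the whole range of that gene.

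Icam1 (chromosome 8, 22035256 to 22047059, 7 exons) encodes ICAM-1, the endothelial and epithelial ligand of the leucocyte beta2 integrins. Its level, as CPM (counts scaled to library size with TMM factors), was 1.80 and 1.47 in the controls, 7.00 and 18.3 with indomethacin, 11.4 and 16.7 with aspirin and 10.8 and 17.2 with diclofenac. All 6 NSAID libraries stood above both controls, and the 3 drug groups overlapped one another. The log2 fold change was 2.95 ± 0.48 with indomethacin (SE, n = 2 per group, edgeR adjusted p = 0.03), 3.09 ± 0.48 with diclofenac (edgeR adjusted p = 0.008) and 3.10 ± 0.48 with aspirin (edgeR adjusted p = 0.0072), about an 8-fold rise as the ratio of mean CPM (7.73, 8.55 and 8.58). The indomethacin call was lost without control replicate 1 (3.12, edgeR adjusted p = 0.18), control replicate 2 (2.83, 0.25), indomethacin replicate 2 (2.1, 0.054) or either aspirin library (2.95 for both, 0.059 and 0.06), and those with diclofenac and aspirin without control replicate 1 (3.28 and 3.29, edgeR adjusted p = 0.077 and 0.059). Among libraries with Y reads indomethacin stood 3.89-fold over control, and among those without them 12.4-fold, each 1 library against 1 and untested. Against the control without Y reads, the aspirin libraries averaged 9.55-fold and the diclofenac libraries 9.52-fold.

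Vcam1 (chromosome 2, 219071193 to 219097619, 16 exons) encodes VCAM-1, which binds the integrin VLA-4 of lymphocytes, monocytes and eosinophils. It was already well expressed in control mucosa, at 8.21 and 7.92 CPM. Values were 10.5 and 11.7 CPM with indomethacin, 15.3 and 11.4 with aspirin and 7.76 and 13.1 with diclofenac. Indomethacin and aspirin libraries lay above both controls, whereas diclofenac replicate 1 lay below them. The log2 fold change was 0.46 (95% interval -0.17 to 1.079) with indomethacin, 0.37 (-0.25 to 0.99) with diclofenac and 0.73 (0.10 to 1.35) with aspirin (edgeR adjusted p = 0.67, 0.44 and 0.092). With no low-count filter the aspirin value passed (edgeR adjusted p = 0.026). The upper ends of these intervals lie below the lower ends of the Icam1 intervals, which were 1.86, 2.01 and 2.01.

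The selectins went from near absence to low but countable levels. P-selectin, encoded by Selp, is stored in platelets and endothelial granules and is also transcribed on activation. Its counts were 3 and 0 in the controls, 22 and 96 with indomethacin, 36 and 138 with aspirin and 107 and 129 with diclofenac, or 0.614 to 3.27 CPM in NSAID libraries against at most 0.0947 CPM in control. The 6 NSAID libraries lay above both controls. As ratios of summed counts scaled by library these were 32.4-fold (95% Poisson interval 10.8 to 159), 51.5-fold (17.3 to 252) and 56.3-fold (19 to 275) for indomethacin, aspirin and diclofenac. The edgeR adjusted p was 0.009 with diclofenac, 0.0091 with aspirin and 0.059 with indomethacin, given as a description because Selp entered the test only through the groups in which it was high. For indomethacin the fitted log2 fold change of 4.89 became 3.57 without indomethacin replicate 2 and 4.00 without control replicate 2. It was 5.59 without indomethacin replicate 1 and 8.77 without control replicate 1. The edgeR adjusted p was 0.038 under the replicate block. With no low-count filter it was 3.1e-13, where the SE was 0.62 against 0.99 with the filter. By DESeq2 the adjusted p was 0.00021, and these p-values are likewise a description.

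E-selectin, encoded by Sele, is made almost solely by activated endothelium. It had 0 counts in both controls, 5 and 15 with indomethacin, 17 and 13 with aspirin and 27 and 11 with diclofenac. Each NSAID library thus held some reads and neither control did. Set against a floor of 3 counts for the 2 controls together, the gene stood 5.49-fold over that floor with indomethacin, 8.87-fold with aspirin and 9.07-fold with diclofenac. The exact Poisson 95% intervals of the ratios to control itself, which are 2-sided, start lower, at 4.07, 6.78 and 7.02. As for Selp, its adjusted p is a description only: 0.028 with diclofenac, 0.02 with aspirin and 0.17 with indomethacin by edgeR (0.0039 with no low-count filter). The diclofenac value passed the threshold no longer without control replicate 1 (0.14), control replicate 2 (0.069) or diclofenac replicate 1 (0.11), and the aspirin value without control replicate 1 (0.095), control replicate 2 (0.051) or aspirin replicate 1 (0.1). With a term for Y reads the edgeR adjusted p was 0.087 and 0.063.

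Sele and Selp lie on the same strand of chromosome 13 in the deposited coordinates, from 82355471 to 82365341 and from 82429063 to 82464628, with 63721 bases between them. A 9-exon feature on that strand between them (82369493 to 82387631), singled out after its values were seen and not named for want of a matched symbol, had 0.316 and 0.2 CPM in control, 2.37 and 3.19 with indomethacin, 1.51 and 5.49 with aspirin and 3.90 and 7.93 with diclofenac. All 6 NSAID libraries were above both controls, which is a description with no test, since the feature was picked for it. A single-exon feature on the other strand (82365460 to 82366907) held at most 2 counts in any library.

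Thbs1, on chromosome 3 from 109862117 to 109873466, was the most abundant of the 7 genes in every library and moved furthest in absolute terms. Values were 43.3 and 49.9 CPM in control, 270 and 631 with indomethacin, 346 and 672 with aspirin and 736 and 996 with diclofenac. All 6 NSAID libraries were far above both controls, and both diclofenac libraries were above all others. The log2 fold change was 3.27 ± 0.45 with indomethacin, 3.45 ± 0.46 with aspirin and 4.21 ± 0.47 with diclofenac (SE, n = 2 per group, edgeR adjusted p = 0.0093, 0.0031 and 0.0013), or 9.66-fold, 10.9-fold and 18.6-fold as ratios of means. The calls with aspirin and diclofenac held in 18 of 18 alternatives, and the indomethacin call was lost without control replicate 1 (3.19, edgeR adjusted p = 0.11) or control replicate 2 (3.40, 0.12). Without indomethacin replicate 2 the indomethacin value of Thbs1 was 2.54 (edgeR adjusted p = 0.036). Within libraries with Y reads the indomethacin library was 6.24-fold over control, and within those without them 12.6-fold. Against the control without Y reads the diclofenac mean was 17.3-fold and the aspirin mean 10.2-fold higher.

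Of the vasoactive genes, Nos3 rose with diclofenac and aspirin, and Edn1 passed no test. Nos3 (chromosome 4, 7320668 to 7342410, 26 exons) encodes endothelial nitric oxide synthase, whose product relaxes vessels and limits leucocyte adhesion. Its level was 1.04 and 0.635 CPM in control, 1.67 and 3.57 with indomethacin, 3.83 and 4.64 with aspirin and 4.49 and 2.98 with diclofenac. The 6 NSAID libraries were above both controls. The log2 fold change was 2.15 ± 0.42 with diclofenac (SE, edgeR adjusted p = 0.015), 2.33 ± 0.43 with aspirin (0.0085) and 1.64 ± 0.43 with indomethacin (0.13). The indomethacin value passed by DESeq2 (adjusted p = 0.026) and with no low-count filter (edgeR adjusted p = 0.00028), and was 0.99 without indomethacin replicate 2 (0.86) and 1.35 without control replicate 2 (0.40). The diclofenac call was lost without control replicate 2 (1.86, edgeR adjusted p = 0.056), without diclofenac replicate 1 (1.85, 0.061) and with the Y term (1.95, 0.074). Among libraries with Y reads the indomethacin value of Nos3 was 1.61-fold over control, against 5.63-fold among those without, where diclofenac stood at 5.88-fold and aspirin at 6.67-fold.

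Edn1 (chromosome 17, 22137324 to 22143324, 5 exons) encodes the precursor of endothelin-1, a strong vasoconstrictor. The controls themselves were far apart, at 4.36 and 0.868 CPM, from 138 and 26 counts. With indomethacin the values were 3.46 and 4.55 CPM, with aspirin 2.54 and 3.76 and with diclofenac 3.63 and 4.81. Every NSAID library was above control replicate 2, and only 1 each of indomethacin and diclofenac was above control replicate 1. Log2 fold changes were 0.61 (95% interval -0.74 to 1.96), 0.27 (-1.08 to 1.63) and 0.69 (-0.66 to 2.03) with indomethacin, aspirin and diclofenac (edgeR adjusted p = 0.81, 0.77 and 0.5). Without control replicate 1 they became 2.22, 1.90 and 2.31 (edgeR adjusted p = 0.12, 0.061 and 0.043), and without control replicate 2 they became -0.11, -0.43 and -0.020. Control replicate 1 is the control library with Y reads, and with a term for Y reads the values were 0.91, 0.89 and 1.30, none past the threshold (edgeR adjusted p = 0.69, 0.46 and 0.38).

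**Figure D3:**
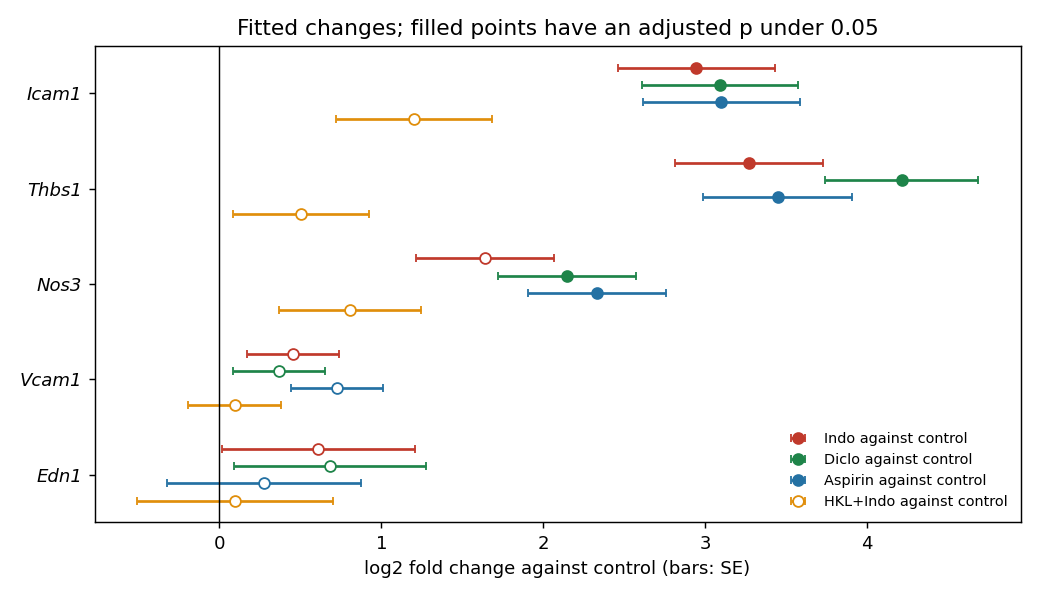
Log2 fold changes against control (horizontal axis; points are fitted values and bars their SE) for 5 genes in 4 groups, with filled points for an edgeR adjusted p under 0.05. Icam1 and Thbs1 lie at 2.95 or above with all NSAIDs alone, Nos3 between 1.64 and 2.33, and Vcam1 and Edn1 below 1. Sele and Selp are left out because their controls hold 0 to 3 counts.

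Honokiol before indomethacin was compared with indomethacin alone because the protocol describes it as protective. Thbs1 was lower with honokiol, and the other 6 genes did not pass the test. Of the 5 genes well counted in control, 1 was called lower (0.3% of all genes), and their median log2 difference was -0.83 beside -0.02 over all genes. Icam1 and Thbs1, 2 of these 5, had both honokiol libraries below both indomethacin libraries, as 23.6% of all genes did.

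Thbs1 had 75.6 and 56.7 CPM with honokiol and indomethacin against 270 and 631 with indomethacin alone, a log2 difference of -2.77 ± 0.44 (SE, n = 2 per group, edgeR adjusted p = 0.03). The groups did not overlap. Both honokiol libraries held Y reads and only indomethacin replicate 1 did, so within that state the mean with honokiol was 0.245 of the indomethacin library, against 0.147 with all libraries. With the Y term the difference was -2.30 and the edgeR adjusted p 0.081. The call was also lost when only these 2 groups were fitted (-2.76, edgeR adjusted p = 0.057) and without indomethacin replicate 2 (-2.03, 0.12), the first honokiol library (-2.99, 0.22) or the second (-2.58, 0.38).

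Icam1 was at 4.57 and 2.96 CPM with honokiol and indomethacin, below both indomethacin values, with a log2 difference of -1.74 (95% interval -2.76 to -0.73, edgeR adjusted p = 0.22). It passed by DESeq2 (adjusted p = 0.0037), and without indomethacin replicate 1 it was -2.29. With no low-count filter the difference was nearly the same, at -1.77. Its SE there was 0.27 against 0.45 with the filter, and the edgeR adjusted p was 8.6e-09. Without indomethacin replicate 2 the difference was -0.89 and with the Y term -1.28 (edgeR adjusted p = 0.44). Within libraries with Y reads the ratio was 0.537 against 0.298 over all libraries. Selp held 7 and 6 counts against 22 and 96, which is 0.143 of the indomethacin level (0.074 to 0.254 by exact Poisson limits, for counting error only). Its adjusted p of 0.25 by edgeR and 0.015 by DESeq2 is a description. Selp was tested only through groups in which it was high, indomethacin among them. Its log2 difference of -2.76 became -1.43 without indomethacin replicate 2 (edgeR adjusted p = 0.83) and -1.80 with the Y term (0.53), and within libraries with Y reads the ratio was 0.368. Both genes were thus lower in the 2 honokiol libraries than in both indomethacin libraries, without passing the edgeR threshold in the reported fit.

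Sele held 1 and 4 counts with honokiol and indomethacin against 5 and 15, or 0.325 of it (0.0952 to 0.891). Its edgeR adjusted p of 0.68 is a description, as for Selp. Nos3 stood at 1.20 and 1.76 CPM, Vcam1 at 10.5 and 6.66 and Edn1 at 3.56 and 2.02, all overlapping indomethacin alone, with log2 differences of -0.83, -0.36 and -0.52 (edgeR adjusted p = 0.56, 0.77 and 0.86). Without indomethacin replicate 2 the Nos3 difference was -0.19 (edgeR adjusted p = 0.97). None of these 4 genes can be said to differ at this number of libraries.

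Set against control, honokiol and indomethacin gave 0 of 7 called genes by edgeR (0% of all genes) and 0 by DESeq2, which called 16 of all genes. Icam1 and Sele, 2 of the 7, had an unadjusted p under 0.05 by edgeR, as did 816 of the 16346 genes tested. Sele had 0 counts in both controls and was tested only through groups in which it was high, so its p is a description. Icam1 had a log2 fold change of 1.20 (95% interval 0.12 to 2.29, edgeR adjusted p = 0.83, and 0.0087 with no low-count filter), and Thbs1 had 0.51 (-0.41 to 1.42). Both honokiol libraries were above both controls for 3 of the 5 genes well counted in control (18.3% of all genes).

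**Figure D4:**
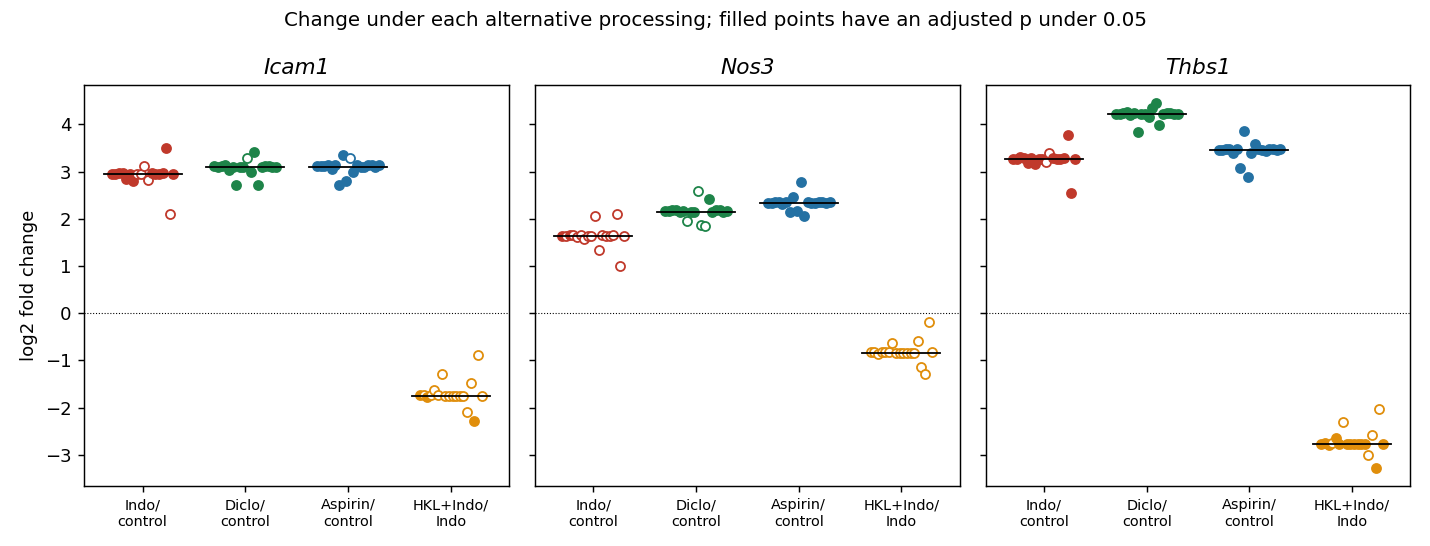
Log2 fold changes of Icam1, Nos3 and Thbs1 (vertical axis) in 4 comparisons under each of 18 alternative ways of processing, with filled points for an adjusted p under 0.05 and a black line at the reported value. The values kept their sign in all of them, while open points show where the call was not made, as for Icam1 with indomethacin in 5 of 18.

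Indomethacin, diclofenac and aspirin were given at different doses, 48, 75 and 400 mg/kg, so the values between drugs stand side by side. In structure the first pair are arylacetic acids, whereas aspirin is an acetylated salicylate. By edgeR 0 of 7 genes differed between indomethacin and diclofenac (0.0184% of all genes), 0 between indomethacin and aspirin (0.0184%) and 0 between diclofenac and aspirin (0%). DESeq2 also gave 0 in each, where it called 160, 457 and 7 of all genes. At an unadjusted p under 0.05 by edgeR there was 1, Thbs1 between indomethacin and diclofenac, beside 1949 of the 16346 genes tested. Its log2 difference was -0.94 (95% interval -1.86 to -0.02, edgeR adjusted p = 0.41). None of the 7 had such a p between indomethacin and aspirin (3283 of all genes) or between diclofenac and aspirin (852). Thbs1 between diclofenac and aspirin had 0.77 (-0.15 to 1.68) with no overlap of libraries. For Icam1 the 3 differences were -0.14, -0.15 and -0.01, with intervals that reach from -1.11 to 0.94, and a miss of the threshold does not show that the drugs acted alike. Nos3 was higher in both aspirin libraries than in both indomethacin libraries, with a log2 difference of -0.69 for indomethacin over aspirin (-1.54 to 0.15, edgeR adjusted p = 0.32).

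Per kilobase of exon (RPKM from scaled CPM), the order of mean levels in control was Thbs1 at 12.8 ± 1.28 (SD, n = 2), Vcam1 at 2.01 ± 0.05, Edn1 at 1.88 ± 1.78, Icam1 at 0.619 ± 0.088, Nos3 at 0.156 ± 0.054, Selp at 0.0149 ± 0.021 and Sele with no counts. Vcam1 and Edn1, neighbours in this order, overlap, as do Edn1 and Icam1. With aspirin the order was Thbs1 at 139 ± 63, Icam1 at 5.31 ± 1.41, Vcam1 at 3.33 ± 0.69, Edn1 at 2.27 ± 0.62, Nos3 at 0.786 ± 0.11, Selp at 0.721 ± 0.43 and Sele at 0.133 ± 0.064, of which only the neighbours Nos3 and Selp overlapped. Icam1 thus went from below Vcam1 to above it in both aspirin libraries, and the same held in both diclofenac libraries, where Icam1 was at 4.07 and 6.51 and Vcam1 at 1.94 and 3.26. With indomethacin it held by means, 4.78 ± 3.01 against 2.76 ± 0.21, and in replicate 2 but not clearly in replicate 1, at 2.65 against 2.61.

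**Figure D5:**
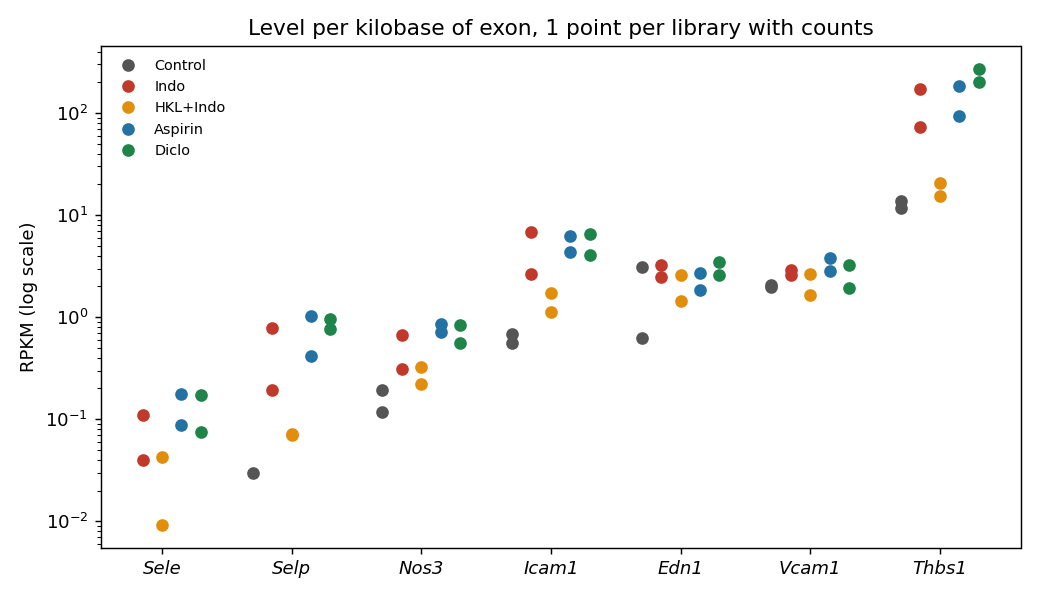
RPKM of each gene on a logarithmic vertical axis, with 1 point per library coloured by group and libraries with no counts left out. Thbs1 runs from 11.9 in a control to 272 with diclofenac, Sele never exceeds 0.178, and Icam1 is below Vcam1 in both controls and above it in all aspirin and diclofenac libraries.

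The order of the 2 libraries of a group differed between groups. Indomethacin replicate 2 was above replicate 1 in 7 of 7 genes, by a median of 2.33-fold (49.2% of all genes were above). In the aspirin and the diclofenac group this held for 5 of 7 genes each (50.6% and 50% of all genes). In the honokiol group it held for 2 of 7 (49.8%) and in control for 1, with Sele at 0 in both (47.5%). For Thbs1 the indomethacin libraries differed more than the mean with indomethacin differed from that with aspirin.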

How the data were processed

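Ribosome-depleted stranded RNA libraries were sequenced as paired ends, per the labels' protocols. The submitters' processing notes name HISAT2 2.1.0, featureCounts, SAMtools, DESeq2, cutadapt 1.16, FastQC 0.11.7 and bcl2fastq. The deposited values are raw counts per gene, in the column layout of featureCounts per the file headers. The counter's strand setting and the genome build: not given in the sources used here.

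Counts of all 10 libraries entered 1 edgeR 4.0.16 fit (R 4.3.3; TMM factors, filterByExpr with minimum count 10 and total 15, robust quasi-likelihood F test, group only, 5 residual degrees of freedom), which tested 16346 genes with Benjamini-Hochberg adjustment. SE is the log2 fold change over the square root of F. The fit was tested on simulated data. Poisson intervals are exact at 95%, cover counting error only, and the floor is 3 counts over a group. Libraries over 1000 counts on Y features were taken to hold Y reads. Alternatives were RLE factors, no filter, a stricter filter (1 CPM and 10 counts), DESeq2 1.42.0, fits on 2 groups, leaving out each library, a replicate block, a Y term, and leaving out mitochondrial and short single-exon features. Genes and lists were chosen with earlier results of these data known. All 7 genes are named. The 11 pathway and marker lists, and the rule for genes of like pattern, were not used, since 0 of 32623 identifiers matched a symbol table.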

Additional observations from a re-analysis of the deposited data

How the results depend on the processing

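Over all comparisons of single genes, 926 alternative values kept direction and side of the threshold, 25 lost the call, 15 gained it and 30 changed sign, all 30 for differences that had not passed. RLE factors, the stricter filter, the replicate block and leaving out mitochondrial and short single-exon features moved no count of called genes by over 1.5 times, though the last moved CPM (Thbs1 in control to 94.3). For 2, 5, 5 and 1 called genes, Sele and Selp included (indomethacin, diclofenac and aspirin against control, and honokiol and indomethacin against indomethacin), leaving out 1 library gave 0 to 3, 3 to 5, 3 to 5 and 0 to 2. With no low-count filter the count was 5 for indomethacin, 1 for honokiol and indomethacin against control (0 with the filter) and 3 against indomethacin. DESeq2 gave 4 for indomethacin and 3 for honokiol and indomethacin against indomethacin. That last count was 0 with only the 2 groups and 0 with the Y term, which left 3 for diclofenac. Over all genes, the 127, 1286, 2903, 0 and 56 calls (indomethacin, diclofenac, aspirin and honokiol and indomethacin against control, then the last against indomethacin) became 834, 2650, 4198, 153 and 699 with no filter and 376, 1792, 3183, 16 and 243 by DESeq2. With only the 2 groups they were 262, 527, 1759, 3 and 250, and with the Y term 116, 383, 683, 0 and 35. Leaving out 1 library gave 1 to 200, 319 to 1434, 462 to 3606, 0 to 1 and 0 to 118. Between drugs, the 3, 3 and 0 calls (indomethacin against diclofenac and aspirin, then diclofenac against aspirin) became 872, 1414 and 140 with no filter and 160, 457 and 7 by DESeq2. The cause was not tested.

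The labels share replicate numbers but state no pairing. Across genes, deviations of equal numbers correlated at 0.132 to 0.298 among control, indomethacin, and honokiol and indomethacin. Between aspirin and diclofenac they correlated at 0.222. Every correlation of aspirin or diclofenac with the other groups was negative, from -0.104 to -0.263. The cause of this split was not tested, and these values do not settle whether the numbers pair libraries. A replicate block gave 3 called genes with indomethacin, 5 with diclofenac and 5 with aspirin, Sele and Selp included. Selp was among those with indomethacin (edgeR adjusted p = 0.038). Both selectins were tested only through groups in which they were high, so these counts are a description.

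Sign changes were as follows, as the lowest and highest log2 value on leaving out 1 library. Edn1 against control ranged from -0.11 to 2.22 (indomethacin), -0.020 to 2.31 (diclofenac), -0.43 to 1.90 (aspirin) and -0.63 to 1.70 (honokiol and indomethacin; -0.12 with the Y term). Vcam1 against control ranged from -0.057 to 0.73 with diclofenac and -0.28 to 0.40 with honokiol and indomethacin. Indomethacin against diclofenac ranged from -0.997 to 0.38 for Icam1 (0.086 with the Y term), -0.29 to 0.14 for Edn1, -0.26 to 0.51 for Vcam1 and -1.63 to 0.0016 for Sele. Indomethacin against aspirin ranged from -1.0008 to 0.37 for Icam1 (0.077 with the Y term), -1.91 to 0.23 for Selp and -0.91 to 0.39 for Thbs1 (0.078 with the Y term). Diclofenac against aspirin ranged from -0.38 to 0.30 for Icam1, -0.25 to 1.06 for Selp, -0.79 to 0.51 for Sele and -0.51 to 0.086 for Nos3. Where 1 library was left of a group, it was taken to vary like the others. Sele was not tested under the stricter filter, and its counts of 0 to 27 set the limit of what its values can show.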
